A study of Mus musculus with 22 samples.

Results

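The squamous lineage transcription factors described here are 10 genes, Trp63, Sox2, Klf4, Klf5, Klf3, Grhl3, Ovol1, Gata3, Pax9 and Hopx, of the 17541 genes listed in the count files of a single cell RNA sequencing study of mouse esophageal epithelium. They were chosen by name, for their known roles in squamous epithelium, and all 10 were listed in the files. The study compared untreated C57BL6 mice with C57BL6 mice carrying 1 of 2 induced diseases, a model of eosinophilic esophagitis (EoE) or of squamous cell carcinoma of the esophagus (ESCC). Epithelium was peeled from the muscle, dissociated and run on the inDrop droplet platform, and each transcript was counted by its unique molecular identifier (UMI).

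The 6 control mice were untreated, 3 of them young (3 to 4 months) and 3 old (18 to 20 months). The 4 EoE mice received MC903 and ovalbumin (OVA) on the skin during a 12-day sensitization, then OVA in drinking water at 15 g/L and by gavage from day 15 to day 32. Of these, 2 were young (6 to 8 weeks) and 2 were old (19 to 20 months). The 3 ESCC mice, aged 8 to 10 months, drank the carcinogen 4-nitroquinoline-1-oxide (4NQO) at 100 ug/mL for 16 weeks and were left without it for 8 weeks. No control group of the ESCC age was included, so age and 4NQO cannot be told apart in that comparison. Epithelium exposed to 4NQO can hold normal, dysplastic and malignant cells, and the count files do not label them.

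Stratified squamous epithelium renews from a basal layer whose daughters move up, stop dividing and build a barrier. p63, encoded by Trp63, and SOX2 hold the basal progenitor state of the esophagus, and PAX9 is needed for normal esophageal differentiation. KLF4, GRHL3 and OVOL1 act as the cells leave the cycle and differentiate, KLF5 is active in proliferating basal keratinocytes, KLF3 is a repressor of the same zinc finger family, GATA3 takes part in epidermal differentiation, and HOPX is a homeodomain protein that does not itself bind DNA.

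After the published limits on genes and UMIs per cell and the removal of non-epithelial cells, 1493 control cells (1744511 UMIs), 143 EoE cells (97975 UMIs) and 1468 ESCC cells (5065995 UMIs) were used. Of the 1500 deposited EoE cells, 144 lay within those limits, against 1500 control and 1494 ESCC cells, so each EoE value rests on 11 to 57 cells and 6245 to 41909 UMIs per mouse. Control and ESCC mice had 2 libraries each, which shared 239 cell barcodes over the 9 mice (45 over 222 pairs of libraries from different mice), so the 2 libraries were summed and the mouse was the replicate. Epithelial markers were present in every mouse. The summed level of 10 immune markers ran from 31.5 to 73.6 CPM in control mice, 145 to 302 CPM in ESCC mice and was 0 in the EoE cells used. Of 4 endothelial markers Pecam1 alone was detected, at 71.6 to 278 CPM in EoE mice (12 UMIs), 7.45 CPM or less in control mice and 2.38 CPM or less in ESCC mice, with Cdh5, Kdr and Cldn5 at 0 throughout. The summed level of 6 fibroblast markers ran from 59.6 to 369 CPM in control mice, 0 to 188 CPM in EoE mice and 13.3 to 118 CPM in ESCC mice.

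The 10 genes lie on 8 chromosomes of the GRCm38 build (GENCODE M21). Klf4 (chr4:55527143-55532466, minus strand) and Grhl3 (chr4:135541888-135573630, minus strand) share chromosome 4. Klf3 (chr5:64803388-64832901, plus strand) and Hopx (chr5:77086988-77115121, minus strand) share chromosome 5. Trp63 (chr16:25683763-25892102, plus strand) has 8 coding transcripts from 3 annotated starts, and the files hold 1 count for the gene, so its long and short amino-terminal forms cannot be told apart. Sox2 (chr3:34650405-34652461, plus strand) lies inside the long noncoding gene Sox2ot on the same strand, which had 11 UMIs in all deposited cells. Pax9 (chr12:56691767-56712822, plus strand) overlaps the end of Slc25a21 on the opposite strand, which had 51 UMIs. The remaining genes are Klf5 (chr14:99298691-99315036, plus strand), Ovol1 (chr19:5549136-5560646, minus strand) and Gata3 (chr2:9857078-9890034, minus strand).

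The start regions of 7 members, in 8 windows, were in the RefSeq promoter table used (GRCm38.p6, 250 bases before to 50 after each start). The windows of Grhl3 and Klf3 are printed because both genes were lower in ESCC and because they held 3 or more copies of CACCC, the core of the box that Krüppel-like factors bind. Capitals mark CACCC or its reverse complement GGGTG, which do not overlap one another here.
Grhl3 (GRCm38.p6, chr4:135573583-135573882, minus strand): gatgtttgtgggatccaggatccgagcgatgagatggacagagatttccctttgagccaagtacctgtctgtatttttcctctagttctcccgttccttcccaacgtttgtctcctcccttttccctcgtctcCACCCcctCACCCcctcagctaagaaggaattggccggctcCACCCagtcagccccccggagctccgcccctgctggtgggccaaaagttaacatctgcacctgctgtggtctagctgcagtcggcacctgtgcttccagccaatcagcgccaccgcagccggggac
Klf3 (GRCm38.p6, chr5:64803271-64803570, plus strand): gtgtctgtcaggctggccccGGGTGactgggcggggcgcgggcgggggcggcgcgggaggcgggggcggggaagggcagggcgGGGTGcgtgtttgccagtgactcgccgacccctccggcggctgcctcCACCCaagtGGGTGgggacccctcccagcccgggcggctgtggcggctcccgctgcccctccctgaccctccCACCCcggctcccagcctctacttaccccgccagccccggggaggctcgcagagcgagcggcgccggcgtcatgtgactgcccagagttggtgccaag
The Grhl3 window held 3 copies, the Klf3 window 5, the Gata3 window 3 and the Pax9 window 1. Of the 8 member windows 4 held at least 1 copy (50.0%), against 57.5% of all 32851 windows in the table, and 37.5% held at least 3, against 9.35% of all windows. The windows of Klf4, Sox2 and both starts of Hopx held none. These matches describe the letters only.

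In control epithelium, Trp63 and Sox2 were highest in basal cells, Klf4 and Grhl3 were highest in superficial cells, and Klf5, Klf3 and Pax9 did not pass the test between any of the 3 stages. Cells were placed in a stage by the balance of Krt5, the basal keratin, and Krtdap, a differentiation gene: basal where Krt5 led by more than 0.3 on a log10 scale, superficial where Krtdap led by more than 0.3, and suprabasal between. That gave 862 basal, 147 suprabasal and 476 superficial control cells. Counts were summed per mouse and stage and given as CPM, UMIs relative to the total of the sum, scaled by edgeR's TMM factors, and stages were compared with edgeR's quasi-likelihood test blocked by mouse, with Benjamini-Hochberg adjustment over all genes tested. The count filter kept 7 members and left out Ovol1, Gata3 and Hopx, whose stage values are given without a test. Stages of 1 mouse share its libraries, and the free RNA of a droplet run can carry transcripts between them.

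Trp63 in basal cells of control mice ran from 304 to 734 CPM (median 684), and in superficial cells from 157 to 300 CPM (median 193). Every basal value exceeded every superficial value, though the lowest basal mouse, control 3, came close to the highest superficial one, which was the same mouse. The level fell by 1.74 on the log2 scale from basal to superficial cells (SE 0.165, edgeR adjusted p = 1.17e-17). In suprabasal cells it was between them, at 386 ± 139 CPM (SD, n = 5). The share of all genes that separated fully between stages was not counted, for Trp63 or for the members below.

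Sox2 ran from 405 to 897 CPM in basal cells (median 588) and from 210 to 404 CPM in superficial cells (median 341). The decrease was smaller than that of Trp63, 0.95 on the log2 scale (SE 0.148, edgeR adjusted p = 1.69e-08).

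Hopx, which was not tested, went from a mean of 14.1 CPM in basal to 378 CPM in superficial cells, and Grhl3 from 62.8 to 881 CPM. Grhl3 rose most among the members tested. It met the count filter through the stages in which it was higher, so its call is given with that limit. It was at 38.3 to 101 CPM in basal cells (median 53.9) and at 300 to 1274 CPM in superficial cells (median 937), with no overlap between the stages. The log2 difference was 3.82 (SE 0.192, edgeR adjusted p = 3.61e-38).

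Klf4 was at 604 to 1166 CPM in basal cells (median 788), and reached 1170 to 2631 CPM in superficial cells (median 2332). The log2 difference was 1.37 (SE 0.114, edgeR adjusted p = 5.51e-21). Of the members tested, 4 of 7 passed between superficial and basal cells, 2 in each direction, against 55.1% of all 2921 genes tested.

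Klf5, Klf3 and Pax9 did not pass between superficial and basal cells, with log2 differences of -0.12 (SE 0.102), 0.22 (SE 0.147) and -0.10 (SE 0.143). With stages from Leiden clusters Klf5 passed (-0.29, adjusted p = 0.0115). Klf5 was at 2190 ± 167 CPM in basal and 2071 ± 228 CPM in superficial cells (SD, n = 6). CPM was not divided by gene length, so levels are compared between samples and not between genes.

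Neighbouring stages, which are cuts of a continuous score, were compared as well. The middle stage was the least firm, since 92 of its 147 control cells fell in Leiden clusters classed as suprabasal, beside 116 basal and 136 superficial cells. Between suprabasal and basal cells the same 4 members passed (10.3% of all genes tested did), Grhl3 by 2.27 (SE 0.325), Klf4 by 0.55 (SE 0.162), Trp63 by -0.61 (SE 0.209) and Sox2 by -0.65 (SE 0.210) on the log2 scale. Grhl3 passed with each of the 6 mice left out, Klf4 with 5, Sox2 with 2 and Trp63 with 1. With control mouse 2 left out, or without the block by mouse, 1 member passed. Between superficial and suprabasal cells 3 members passed (19.6% of all genes did), Grhl3 by 1.55 (SE 0.225), Klf4 by 0.82 (SE 0.152) and Trp63 by -1.13 (SE 0.255). The Trp63 call between these 2 stages was lost with stages from Leiden clusters (-0.53, adjusted p = 0.0595) and with no filter on low counts (-0.80, adjusted p = 0.0607). Without control mouse 2, or without control mouse 3, 5 members passed.

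Hopx and Ovol1 did not pass the count filter over the stage sums of control mice. In basal cells they had 13 and 14 UMIs over the 6 control mice. Hopx was at 7.19 to 19.1 CPM in basal cells and at 56.6 to 676 CPM in superficial cells (median 455), and the stages did not overlap. The superficial values fell apart, since control mice 2 and 3 were at 56.6 and 60.0 CPM and the other 4 at 435 CPM or above. Ovol1 was at 6.38 to 39.6 CPM in basal cells and 37.8 to 147 CPM in superficial cells, where only the ranges' ends met.

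Finer bins of the same score showed where along the axis each gene changed. In control cells, Hopx was at 9.62, 14.9, 43.7 and 66.6 CPM (not TMM-scaled, means over 5 or 6 mice) in the 4 bins from the most basal upward, and at 510 ± 260 CPM (SD, n = 5) in the bin where Krtdap led by more than 1. Of the 288 Hopx UMIs of control cells, 253 were in that last bin. Grhl3 had risen earlier, to 288 ± 236 CPM in the suprabasal strip (n = 5) and 685 ± 94.95 CPM in the bin above it (n = 5). Klf4 rose more evenly, from 727 CPM in the lowest bin to 1970 CPM in the highest. Klf5 was at 2183 ± 186 CPM in the fourth bin and 1507 ± 205 CPM in the last (n = 5 each), which the 3 stages alone did not show.

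**Figure D1:**
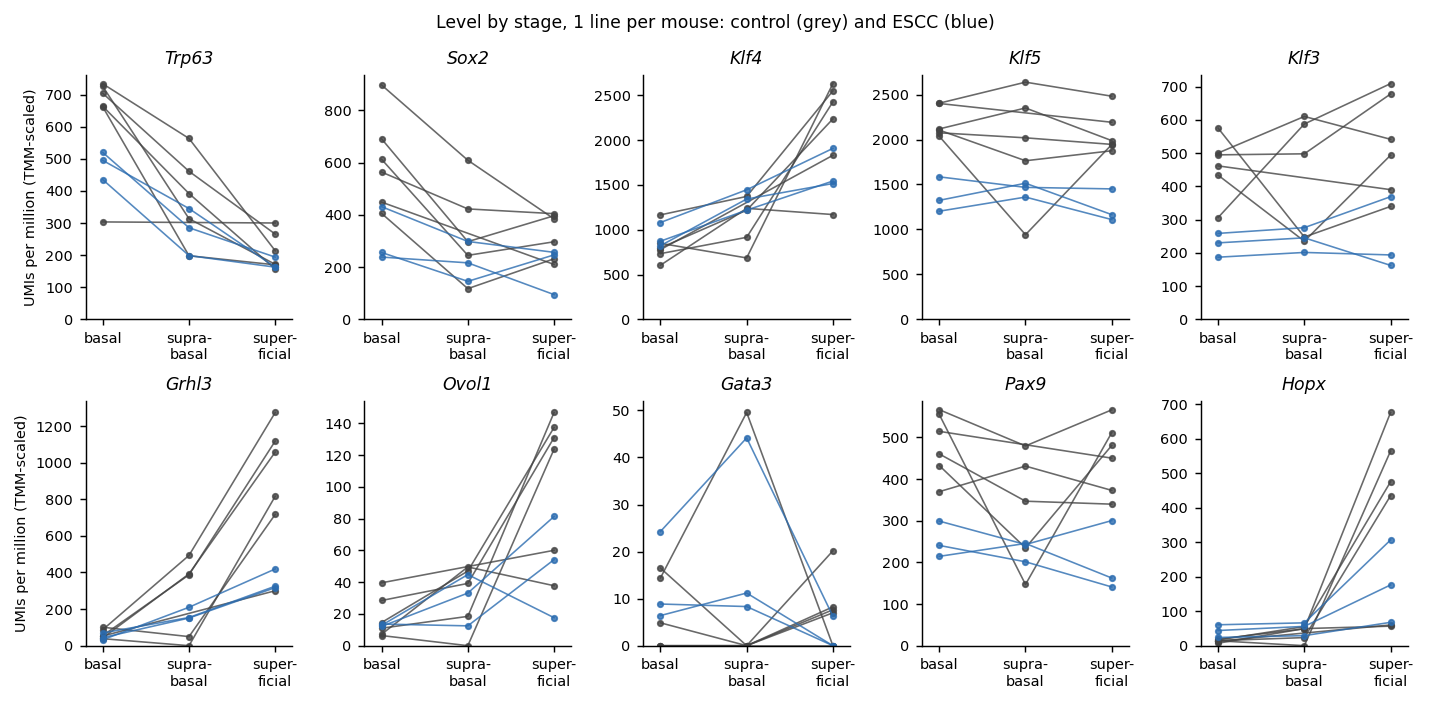
Level of each member (CPM, TMM-scaled, linear axes from 0) by stage, with 1 line per mouse, for 6 control mice (grey) and 3 ESCC mice (blue). A mouse has a point where its stage held at least 10 cells. Grhl3 climbed from 38.3 to 101 CPM in basal to 300 to 1274 CPM in superficial control cells, and Trp63 took the opposite course.

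The genes whose levels ran most like each member over the 17 sums of control mouse and stage were sought among the 2921 genes tested. Those nearest to Trp63 were Cks1b, Cdca7 and Ccnb1, all genes of the dividing cell, with Pearson r of 0.898, 0.891 and 0.891. Those nearest to Klf4 were Ahnak, Hsd17b2 and Tgm3 (r 0.931, 0.919 and 0.905), and those nearest to Grhl3 were Spink5, Tmem123 and 4833439L19Rik (r 0.959, 0.956 and 0.946). Spink5 encodes a protease inhibitor and Tgm3 a transglutaminase of the differentiated layers. Those nearest to Sox2 were Epb41l4aos, Sema5a and Dnph1 (r 0.873, 0.852 and 0.851). Klf5 ran nearest to R3hdm2 (r 0.874), Klf3 to Ubap2 (r 0.844) and Pax9 to Ddx24 (r 0.851). The sums share mice and libraries, so these are descriptions.

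Of the genes that accompany these factors, 9 of 9 differentiation genes tested were higher in superficial than in basal control cells, with a median log2 difference of 4.19, against -0.03 over all genes tested. Sprr1a (7.91), Crct1 (7.11), Sprr3 (6.62) and Cnfn (6.07) had the largest folds. Krtdap and Krt5 defined the stages and are not counted. Of 7 known p63 targets 6 were lower, among them Krt14 (-4.46), Col17a1 (-4.23), Jag2 (-3.64) and Itgb4 (-3.62), and Perp, a desmosomal p63 target, was higher (1.52). Of 21 other transcription factors tested 10 were higher and 5 lower. Grhl1, a paralog of Grhl3, rose by 4.60, Zfp750, a differentiation regulator, by 2.91, Cebpb by 1.78 and Maf by 1.13. Sox4 (-3.15), Klf9 (-1.70), Sox21 (-1.44), Sox15 (-1.20) and Bcl11b (-0.49) were lower.

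In mice with ESCC, 7 of the 9 members tested were lower than in control mice and none was higher. Grhl3, Ovol1 and Hopx were lowest relative to control, Klf3, Pax9, Sox2 and Klf5 were lower by less, and the levels of Trp63 and Klf4 did not pass the test. The share of all 5865 genes tested that passed was 34.4%, of which 51.6% were higher, and the median log2 difference of the members tested was -0.91 against 0.01 over all genes. Scaling by total UMIs alone, without TMM, 34.3% of the genes that passed were higher, and the median of all genes was -0.17. In sums over all cells, fewer cells of a stage and less RNA per cell cannot be told apart, and 1231 of the ESCC cells were basal, 154 suprabasal and 83 superficial.

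Grhl3 was at 65.4, 89.6 and 107 CPM in the ESCC mice and at 130 to 517 CPM in control mice (median 392). The groups did not overlap. The level fell by 2.10 on the log2 scale, 4.29-fold (SE 0.262, edgeR adjusted p = 1.49e-07), and passed with each of the 9 mice left out in turn.

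Klf3 was at 184, 225 and 269 CPM in ESCC mice and 427 to 540 CPM in control mice (median 491). Klf5 was at 1184, 1315 and 1504 CPM against 1927 to 2557 CPM (median 1986), and Pax9 at 212, 226 and 285 CPM against 368 to 527 CPM (median 462). For all of these, as for Grhl3, every ESCC mouse was below every control mouse. The share of all genes tested that separated in this way was not counted. The log2 differences were -1.10 for Klf3 (SE 0.189, edgeR adjusted p = 2.97e-05), -0.91 for Pax9 (SE 0.183, adjusted p = 0.000242) and -0.66 for Klf5 (SE 0.215, adjusted p = 0.0170). Klf5 did not pass without control 4, 5 or 6, without ESCC 17F or 17M, with no filter on low counts (adjusted p = 0.0703) or with mice thinned to the UMI total of the lowest control mouse (adjusted p = 0.0951), and its log2 difference ran from -0.77 to -0.59 with each mouse left out.

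Sox2 was at 225, 236 and 379 CPM in ESCC mice and 313 to 630 CPM in control mice (median 457), and mouse 8M was within the control range. It fell by 0.76 on the log2 scale (SE 0.217, edgeR adjusted p = 0.00665) but missed the threshold without mouse 17F (adjusted p = 0.0812) or without 17M (adjusted p = 0.0807).

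Ovol1 was at 14.8, 16.4 and 24.4 CPM in ESCC mice and 19.4 to 70.0 CPM in control mice (median 56.8). Control mouse 2, at 19.4 CPM, lay among the ESCC values. The log2 difference was -1.55 (SE 0.30, edgeR adjusted p = 0.000146). Ovol1 met the count filter through the other groups and not through the ESCC mice, so its call is given with that limit.

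Hopx was at 25.8, 49.1 and 97.6 CPM in ESCC mice and 24.2 to 277 CPM in control mice (median 169), and the groups overlapped. The log2 difference was -1.52 (SE 0.443, edgeR adjusted p = 0.00781). It did not pass without mouse 17M (-1.15, adjusted p = 0.0587) or with DESeq2 (-1.23, adjusted p = 0.264).

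Trp63 was at 358.1, 451.7 and 465.8 CPM in ESCC mice, inside the control range of 307 to 509 CPM (median 478), with a log2 difference of -0.09 (SE 0.197, edgeR adjusted p = 0.766). Klf4 was at 886, 928 and 1208 CPM, again inside the control range of 828 to 1676 CPM (median 1306), with a difference of -0.36 (SE 0.271, edgeR adjusted p = 0.327). Gata3 had 12 UMIs over the control mice and 48 over the ESCC mice, and at 6.88 and 9.47 CPM pooled (exact Poisson 95% intervals 3.55 to 12.0 and 6.99 to 12.6, counting error only) no difference was detectable. Of the 43 ESCC cells with a Gata3 UMI, 7 also held a UMI of a T cell marker and 18 a UMI of an immune marker.

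**Figure D2:**
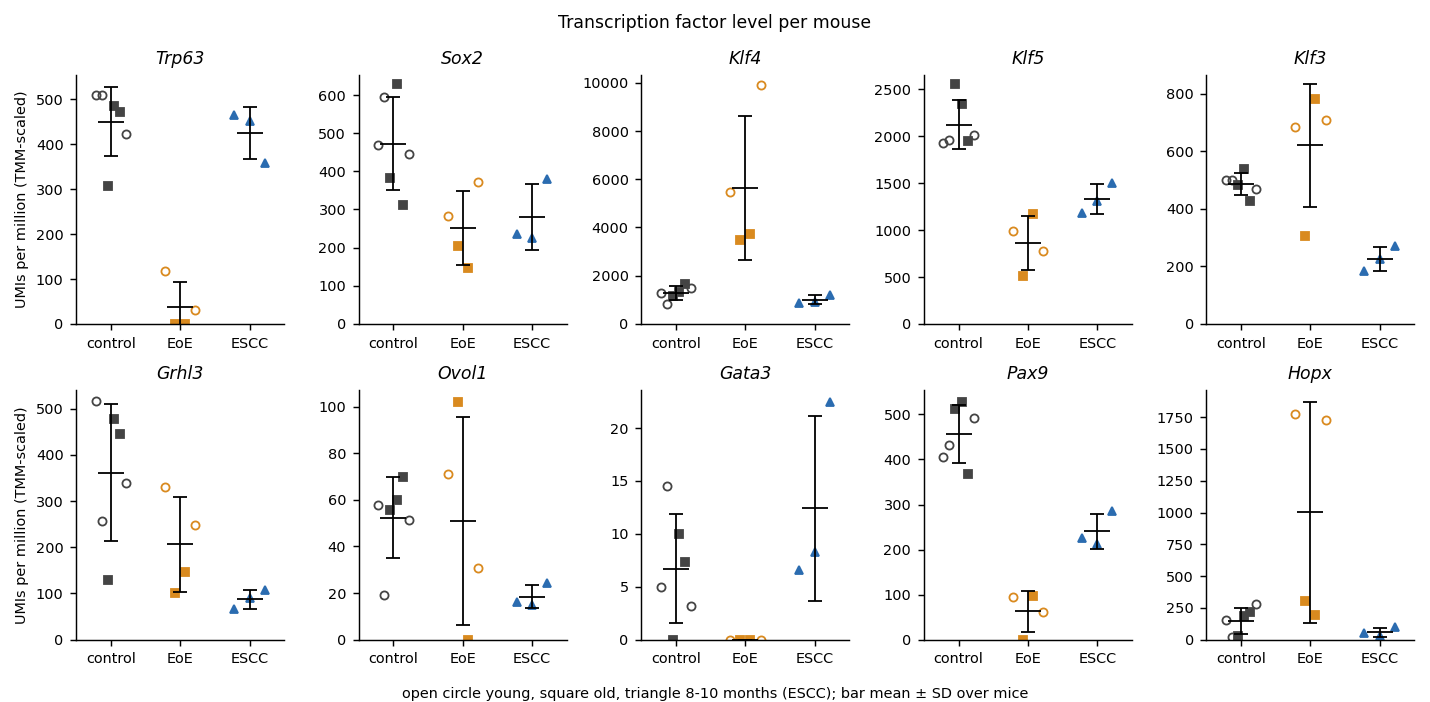
Level of the 10 members in each mouse (CPM, TMM-scaled, linear axes from 0) in 6 control, 4 EoE and 3 ESCC mice. The black bars are the mean ± SD over mice, and the open circles, squares and triangles are young, old and 8 to 10 month mice. All 3 ESCC mice were below all control mice for Klf3, Klf5, Grhl3 and Pax9, and Hopx in EoE split into 2 mice above 1700 CPM and 2 at 306 CPM or below. Such separation was examined for the members only, without the share over all genes.

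The same comparison within stages showed which decreases were present in cells of 1 stage. Among basal cells 4 of 7 members tested were lower in ESCC (30.7% of all 4127 genes tested passed): Klf3 by 1.03 (SE 0.186), Sox2 by 0.98 (SE 0.231), Pax9 by 0.94 (SE 0.177) and Klf5 by 0.67 (SE 0.164) on the log2 scale, with edgeR adjusted p of 0.000228, 0.00264, 0.000355 and 0.00384. Basal Sox2 was at 238, 256 and 431 CPM in ESCC mice against 405 to 897 CPM in control mice, so that mouse 8M alone met the control range. Klf5 did not pass without ESCC 17F (adjusted p = 0.0546). Basal Grhl3 (-0.34, SE 0.311) and Klf4 (0.18, SE 0.183) did not pass.

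Basal Trp63 was at 435, 495 and 520 CPM in ESCC mice. Of the control mice 5 were at 662 to 734 CPM and control 3 was at 304 CPM. With all mice the log2 difference was -0.40 (SE 0.194, edgeR adjusted p = 0.126), and without control 3 it was -0.51 (adjusted p = 0.0130), so this call turned on 1 mouse whose basal sum held 54 cells. Over all its cells control 3 also had the highest fibroblast marker level, 369 CPM, whose part in the Trp63 value was not tested. Over all cells of a mouse Trp63 was close to control in ESCC, while 1231 of 1468 ESCC cells and 862 of 1493 control cells were basal, the stage in which Trp63 was highest.

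Among suprabasal cells 6 of 7 members tested were lower in ESCC (38.5% of all 991 genes tested passed), and Klf4 alone did not pass. Klf3 (-1.24, SE 0.285, edgeR adjusted p = 0.00174), Grhl3 (-1.20, SE 0.407, adjusted p = 0.0250), Sox2 (-1.14, SE 0.339, adjusted p = 0.0113), Pax9 (-0.88, SE 0.298, adjusted p = 0.0247), Trp63 (-0.82, SE 0.278, adjusted p = 0.0247) and Klf5 (-0.77, SE 0.229, adjusted p = 0.0110) made up the set. The Trp63 call was lost with a strip of 0.5 (-0.43, adjusted p = 0.172) and with cells thinned for the stage call (-0.20, adjusted p = 0.591). With each of 9 mice left out, Klf3 passed 9 times, Sox2 and Klf5 7 times, Trp63 6 times and Pax9 4 times. Grhl3 passed in 4 of the 6 such fits that tested it. These sums were small, and 1 member passed without ESCC 17F, 3 without ESCC 17M or control 4, and 2 with DESeq2.

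Among superficial cells 3 of 8 members tested were lower in ESCC (25.1% of all 2081 genes tested passed). Grhl3 was at 317, 325 and 419 CPM in ESCC mice and 300 to 1274 CPM in control mice, where control 3 was the lowest and the other 5 were at 717 CPM or above (-1.17, SE 0.269, edgeR adjusted p = 0.00141). Pax9 (-0.91, SE 0.256, adjusted p = 0.00836) and Klf3 (-0.90, SE 0.257, adjusted p = 0.00904) were lower by about as much as in basal cells. Hopx (-0.88, SE 0.473, adjusted p = 0.187), Klf5 (-0.61, SE 0.239, adjusted p = 0.0625), Sox2 (-0.51, SE 0.292, adjusted p = 0.222), Klf4 (-0.22, SE 0.271) and Trp63 (-0.11, SE 0.308) did not pass. Without ESCC 17M Klf3 missed the threshold (adjusted p = 0.0554). Klf5 passed with a strip of 0.5 (-0.72, adjusted p = 0.0299), without control 1, 5 or 6 and with DESeq2 (adjusted p from 0.0327 to 0.0439), and Hopx without ESCC 8M (-1.69, adjusted p = 0.0479) and with cells thinned for the stage call (-1.24, adjusted p = 0.0440). ESCC superficial sums held 16, 23 and 44 cells.

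The ESCC difference in superficial cells was compared with that in basal cells in a single model. Of 9 members tested 1 passed, Hopx, with a difference of -2.60 (SE 0.469, edgeR adjusted p = 0.000139), where 1.36% of all 4333 genes tested passed. Hopx did not pass the count filter in basal cells alone, where control mice held 13 UMIs, and entered this model through the superficial sums, in which it was higher, so its call is given with that limit. Basal Hopx was at 23.8, 44.0 and 60.6 CPM in ESCC mice and 7.19 to 19.1 CPM in control mice, so every ESCC mouse was above every control mouse. The share of all genes that separated so in basal cells was not counted. The median basal cell held 3000 UMIs in ESCC and 951.5 in control mice, and the part of depth and of free RNA in the basal values was not tested. Superficial Hopx was at 67.7, 176 and 307 CPM in ESCC mice and 56.6 to 676 CPM in control mice. Grhl3 (-0.90, SE 0.335, adjusted p = 0.218) and Klf4 (-0.48, SE 0.183, adjusted p = 0.226) did not pass in the model. Without ESCC 8M Grhl3 passed (-1.40, adjusted p = 0.0183).

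Along the finer score, Grhl3 in ESCC cells reached 241 ± 51.7 CPM in the fourth bin, against 685 ± 94.95 CPM in control cells (not TMM-scaled, n = 3 and 5 mice). Klf4 in the same bin was at 1309 ± 113 and 1545 ± 176 CPM. Sox2 in the most basal bin was at 293 ± 77.0 CPM in ESCC and 649 ± 286 CPM in control mice (n = 3 and 6). Hopx in the most basal bin was at 38.0 ± 22.2 CPM in ESCC and 9.62 ± 11.6 CPM in control mice. In the last bin 26 ESCC cells remained and only mouse 8M had at least 10 of them, so no spread can be given there.

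**Figure D3:**
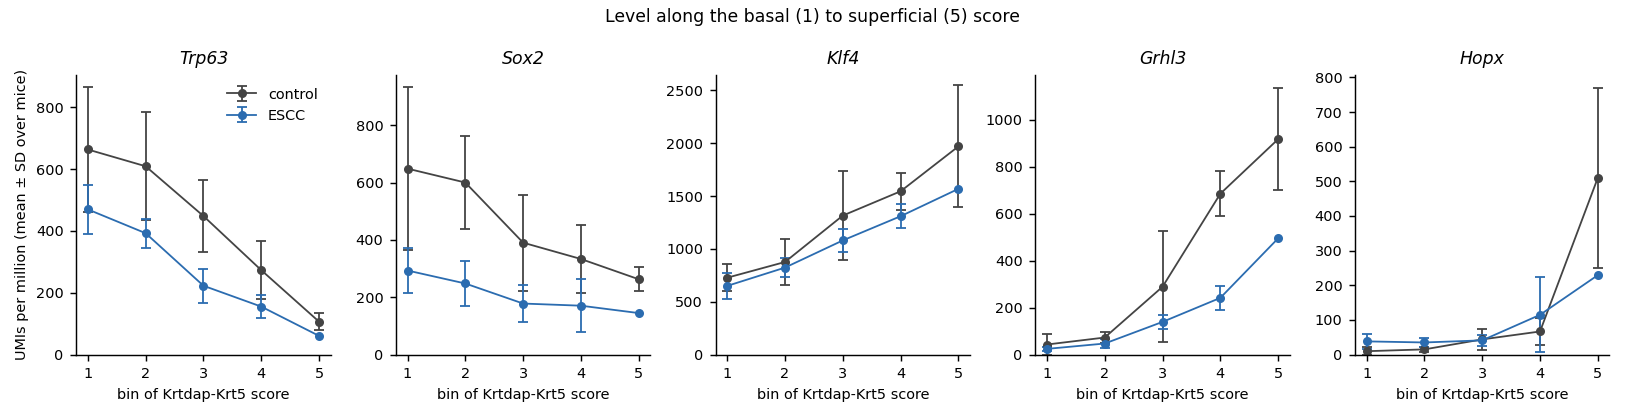
Level of 5 members (CPM without TMM scaling, linear axes from 0) in 5 bins of the Krtdap-Krt5 score, from below -1 (bin 1) through -1 to -0.3, -0.3 to 0.3 and 0.3 to 1 to above 1 (bin 5). Points are means over mice with at least 10 cells in the bin and bars are SD, for control (grey) and ESCC (blue), and the last ESCC point is 1 mouse. Grhl3 in bin 4 was at 685 CPM in control and 241 CPM in ESCC mice.

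Genes around the members moved in ESCC as follows. Of 11 differentiation genes tested 10 were lower and none higher (median log2 difference -1.76), with Crct1 (-4.82), Lor (-4.42), Sprr3 (-3.55) and Cnfn (-3.10) lowest. These are genes of the cornified envelope and the superficial layers. Of 8 p63 targets 3 were higher, Krt14 (2.10), Krt5 (1.06) and the hemidesmosome integrin Itgb4 (0.79), and the Notch ligand Jag2 was lower (-0.64). Of 30 other transcription factors tested 10 were lower and 5 higher. Among the lower ones were Klf6 (-1.34), Elf3 (-1.25), Sox21 (-1.19) and Grhl2 (-0.87), and among the higher ones Klf13 (1.12), Pitx1 (1.07), Tfap2c (1.01) and Id3 (0.97). Immune markers were higher and fibroblast markers ranged lower in these mice, with overlap (above), and their part in these values was not tested.

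In mice with EoE, Klf4 and Hopx were higher than in control mice, and Trp63, Pax9 and Klf5 were lower, so 5 of the 9 members tested passed. Among them Trp63 had 6 UMIs in the EoE cells used. Of all 5865 genes tested 34.4% passed, 554 higher and 1464 lower, and the median log2 difference of all genes was -0.75 (-0.60 with total UMIs alone), so member values below 0 are to be read against that shift. Of the 143 cells used 85 were superficial, 20 basal, 4 suprabasal and 34 held neither Krt5 nor Krtdap, so the sums over all cells compared mostly superficial EoE cells with control epithelium of all stages. Members at few UMIs are given by their counts. Pecam1 was higher in these cells (above), and its part in the member values was not tested.

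Klf4 was at 9889 and 5482 CPM in the young EoE mice (9 and 10) and 3465 and 3711 CPM in the old ones (11 and 12), against 828 to 1676 CPM in control mice. Every EoE mouse was above every control mouse. The level was 4.35-fold higher, a log2 difference of 2.12 (SE 0.252, edgeR adjusted p = 1.01e-07), and it stayed at 1.58 or above with each of 10 mice left out.

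Hopx was at 1731 and 1772 CPM in the young EoE mice and 306 and 195 CPM in the old ones, against 24.2 to 277 CPM in control mice. The old EoE mice rested on 3 and 4 UMIs, and mouse 12 lay inside the control range. The log2 difference was 2.86 (SE 0.451, edgeR adjusted p = 1.16e-05), from 2.48 to 3.15 with each mouse left out.

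Trp63 had 6 UMIs in all EoE cells used, 5 of them in mouse 10, and 0 in both old mice, against 794 UMIs in control mice. The pooled level was 61.2 CPM against 455 CPM, a ratio of 0.135 (exact 95% interval 0.0492 to 0.294, counting error only), and the edgeR adjusted p was 5.31e-06. Trp63 met the count filter through control and ESCC mice, so its call is given with that limit. Pax9 had 8 UMIs in EoE cells, at 0, 61.8, 94.5 and 97.7 CPM per mouse against 368 to 527 CPM in control mice (log2 difference -2.61, SE 0.388, adjusted p = 4.75e-06). Klf5 was at 510, 773, 993 and 1172 CPM against 1927 to 2557 CPM (-1.27, SE 0.239, adjusted p = 0.000138). For these 3 genes every EoE mouse was below every control mouse in the cells used, which with all deposited cells held for Pax9 and not for Trp63 or Klf5. The share of all genes that separated so fully, in either direction, was not counted.

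Sox2 (-0.83, SE 0.331, edgeR adjusted p = 0.0509), Grhl3 (-0.66, SE 0.394, adjusted p = 0.194), Klf3 (0.42, SE 0.228, adjusted p = 0.152) and Ovol1 (-0.20, SE 0.686, adjusted p = 0.840) did not pass. Sox2 was at 147 to 371 CPM in EoE mice and passed with DESeq2 (-1.08, adjusted p = 0.0166) and without control 3, control 5 or EoE 9 (adjusted p from 0.0270 to 0.0400). It also passed with no filter (-1.17, adjusted p = 0.00449), without doublets, with thinned mice and with shared barcodes counted once (adjusted p from 0.0325 to 0.0459). Grhl3 passed with no filter (-0.9998, adjusted p = 0.0206). Klf3 passed without TMM (0.58, adjusted p = 0.0399). Ovol1 had 5 UMIs in EoE cells, and its pooled ratio to control of 0.968 had an exact 95% interval of 0.307 to 2.34. Gata3 had none, which allows up to 30.6 CPM, above the 6.88 CPM of control cells.

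Only superficial cells could be compared within a stage in EoE, over mice 9, 10 and 12 with 23, 31 and 23 cells. There 7 of 8 members tested passed, against 39.5% of all 2081 genes tested (301 higher, 521 lower, median log2 -0.32). The 7 include Trp63, which had 1 UMI in these EoE cells and met the count filter through the other groups. The median superficial cell held 646 UMIs in EoE and 1206.5 in control mice. The stage call at equal depth or with a wider strip was not tested for EoE. Superficial Klf4 was at 9311, 6270 and 3403 CPM in these EoE mice, above the 1170 to 2631 CPM of control superficial cells (log2 difference 1.86, SE 0.258, edgeR adjusted p = 1.82e-06). Superficial Hopx was at 1977, 2239 and 200 CPM against 56.6 to 676 CPM (2.18, SE 0.415, adjusted p = 0.000129), so the old mouse 12 lay inside the control range. Klf3 was higher by 0.68 (SE 0.275, adjusted p = 0.0496) and did not pass with any 1 of the 3 EoE mice, or control 2, left out.

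Superficial Pax9 (-2.31, SE 0.472, edgeR adjusted p = 0.000320), Grhl3 (-1.35, SE 0.352, adjusted p = 0.00327) and Klf5 (-1.30, SE 0.281, adjusted p = 0.000576) were lower in EoE. Grhl3 was at 288, 418 and 100 CPM in EoE mice 9, 10 and 12, so mice 9 and 12 were below the lowest control mouse (300 CPM) and mouse 10 was not. Superficial Trp63 had 1 UMI in EoE cells and 121 in control cells, a pooled ratio of 0.0828 (exact 95% interval 0.00208 to 0.470, counting error only). In the last score bin Hopx was at 3322 ± 172 CPM in the young EoE mice 9 and 10 (n = 2) and 510 ± 260 CPM in control mice (n = 5). Old mouse 12, inside the control range over superficial cells, had too few cells in that bin to be included. In the fourth bin Hopx was at 956 ± 913 CPM in EoE mice (n = 3) and 66.6 ± 39.2 CPM in control mice (n = 5). The last bin has no upper end, and scores were not matched within bins.

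**Figure D4:**
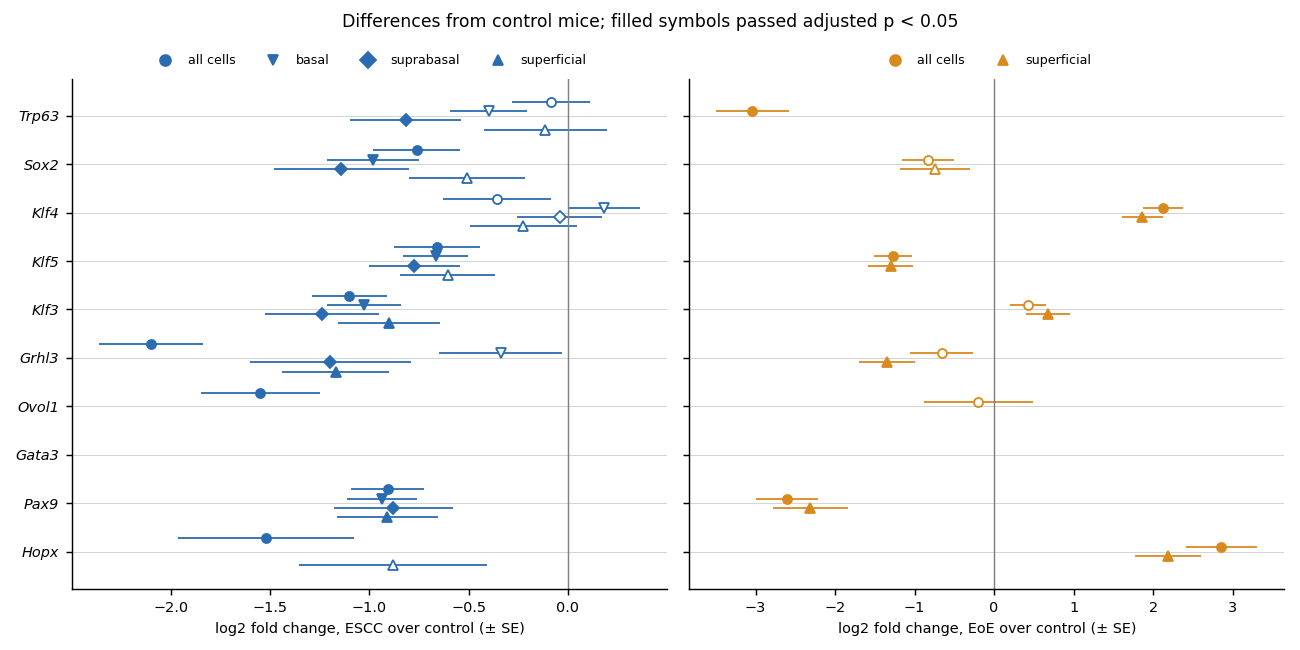
Log2 fold change of each member over control mice (± SE) in ESCC (left) and EoE (right), over all cells (circles) and within basal (downward triangles), suprabasal (diamonds) and superficial cells (upward triangles). Filled symbols passed an adjusted p of 0.05, and members without a symbol did not pass the count filter, except superficial Trp63 in EoE, which had 1 UMI and is not drawn. Klf3 and Pax9 were lower in ESCC in all 3 stages, and Klf4 and Hopx were higher in EoE. Suprabasal Pax9 passed in 4 of 9 fits with 1 mouse left out.

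The cells outside the published limits held much of the EoE signal of some members. They were shallow, with 199450 UMIs in all, and whether they were intact epithelial cells was not tested. Endothelial marker UMIs in EoE were 12 in the cells used and 103 in all deposited cells. In the 1357 EoE cells left out, Trp63 was at 346 CPM, Sox2 at 516 CPM, Klf5 at 1850 CPM and Hopx at 75.2 CPM pooled, against 61.2, 296, 980 and 1409 CPM in the cells used. With all deposited cells Trp63 was at 252 CPM in EoE and 454 CPM in control mice pooled, and its log2 difference shrank from -3.04 to -0.69 (edgeR adjusted p = 0.00863). Pax9 went from -2.61 to -1.51 (adjusted p = 6.10e-06), Hopx from 2.86 to 1.80 (adjusted p = 0.00456) and Klf4 from 2.12 to 1.70 (adjusted p = 1.18e-06). Klf5 no longer passed (log2 difference -0.26, edgeR adjusted p = 0.226), Sox2 changed sign (0.07), and Klf3 (0.64, adjusted p = 0.00277) and Grhl3 (-1.44, adjusted p = 0.00176) passed.

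Set beside each other, EoE and ESCC differed for 6 of 9 members tested (41.6% of all 5865 genes passed). Hopx (4.38, SE 0.531), Klf4 (2.48, SE 0.318), Klf3 (1.52, SE 0.255) and Grhl3 (1.44, SE 0.463) were higher in EoE, and Trp63 (-2.95, SE 0.473) and Pax9 (-1.70, SE 0.430) were lower, with edgeR adjusted p from 8.31e-08 to 0.0140. The Trp63 value again rested on 6 UMIs in EoE cells. Klf3 was 306 CPM or more in every EoE mouse and 269 CPM or less in every ESCC mouse. The 306 CPM value was that of EoE mouse 11, with 11 cells and 6245 UMIs in all, so this gap rested on very few Klf3 UMIs. Without EoE mouse 10 or without EoE mouse 9 the Grhl3 difference missed the threshold (adjusted p = 0.191 and 0.0630), as it did with DESeq2 (adjusted p = 0.0514). With all deposited cells neither Grhl3 (0.69, adjusted p = 0.164) nor Pax9 (-0.58, adjusted p = 0.0517) passed. Klf5 (-0.61, SE 0.264, adjusted p = 0.0631) passed with DESeq2, with no filter, without doublets or with only these groups fitted (adjusted p from 0.000152 to 0.0249). All comparisons with control share the same 6 control mice. Median log2 of all genes in this comparison was -0.81.

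Around the members in EoE, 5 of 11 differentiation genes tested were higher, among them Sprr1a (2.26), Lor (2.17), Cnfn (2.08) and Sprr1b (1.82). Tgm1, a transglutaminase of the cornified envelope, was lower, on 3 UMIs in EoE against 251 in control cells (pooled ratio 0.213, exact 95% interval 0.0436 to 0.629). Of 8 p63 targets 6 were lower, including Krt14 (-4.39), Krt5 (-3.60) and Fgfr2 (-2.55). Col17a1 had 1 UMI in EoE cells and 1181 in control cells (ratio 0.0151, exact 95% interval 0.000381 to 0.0842). Of 30 other transcription factors tested 3 were higher, Dlx3 (2.63, on 7 UMIs in EoE), Rora (1.39) and Ehf (1.13), and 6 lower. The lower ones with the largest folds were Klf9 (-2.73), Hes1 (-2.72) and Sox21 (-2.04), on 4, 4 and 5 UMIs in EoE, together with Elf3, on 1 UMI in EoE (ratio 0.170, exact 95% interval 0.00425 to 0.966), and Sox15, on 0 UMIs against 191. The control level of Sox15 was at least 3.58-fold higher, taking 3 UMIs over the EoE group as the limit.

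Age was compared within control mice and within the EoE effect. Between old and young control mice 0 of 9 members tested passed with edgeR, as did 0% of all 6489 genes (292 at an unadjusted p under 0.05, and 0 with DESeq2), and the members' median log2 difference was 0.02. For the EoE effect in old against young mice 0 members passed, and 0.0154% of 6489 genes did. Young EoE mice were 6 to 8 weeks old and young control mice 3 to 4 months. This contrast cannot tell that gap from a change of the EoE effect with age. The largest member differences with counts in every mouse were those of Hopx (-3.28, SE 1.06, unadjusted p = 0.00484, edgeR adjusted p = 0.571) and Klf4 (-1.64, SE 0.466, unadjusted p = 0.00165, adjusted p = 0.411). With 2 EoE mice of each age, the old ones at 11 and 34 cells, these remain values without a call.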

How the data were processed

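The deposited values were raw UMI counts per gene and cell, 1 file per library (22 libraries, 13 mice). Per the labels and the study's methods, the authors drew 1500 cells per condition from inDrop reads processed with UMI-tools (1.0.0), STAR (2.7.3), the GRCm38 genome and featureCounts (version not given in the sources used here).

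The mouse was read from the library titles. Cells with 250 to 3500 genes and 100 to 9500 UMIs were used. Cells with at least 3 UMIs of non-epithelial markers were left out where these outnumbered epithelial marker UMIs, and Scrublet's doublet calls (202 cells, 4.49%) were removed only as an alternative. Counts were summed per mouse, or per mouse and stage with at least 10 cells. Tests used edgeR (4.0.16, R 4.3.3) quasi-likelihood fits with TMM factors (0.83 to 0.88 in ESCC, 0.94 to 1.01 in control, 1.01 to 1.57 in EoE), filterByExpr and Benjamini-Hochberg adjustment over all genes, with DESeq2 (1.42.0), other scalings, filters, depths, stage calls and each mouse left out as alternatives. EoE sums were the shallowest. On simulated data, 200 genes were changed at a log2 fold of 2. Of the changed genes, 90.0% were recovered for ESCC versus control and 57.5% for EoE versus control (5865 genes each). Unchanged genes were called too, 21 beside 180 recovered in ESCC versus control and 11 beside 115 in EoE versus control. Superficial versus basal cells gave 7 beside 178, and old versus young control mice 8 beside 156. The unchanged share of calls was above 0.05 in the ESCC and EoE comparisons and below it in the stage and age comparisons.

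The members and lists were chosen with earlier results of these data known. All 10 members are named. Of 36 other transcription factors up to 5 per comparison and direction, and of 8 p63 targets and 12 differentiation genes up to 4 per comparison, were named by fold among those past an adjusted p of 0.05, with the 3 most alike genes per member with at least 100 UMIs. Some genes that this rule names are not reported here. Mice of a group were taken as replicates. Intervals cover counting error only.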

Additional observations from a re-analysis of the deposited data

Results flagged for a closer look

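Hopx was flagged because its ESCC difference was not the same in superficial and basal cells (log2 -2.60 by the interaction term), with basal levels of 23.8 to 60.6 CPM in ESCC against 7.19 to 19.1 CPM in control mice. Control basal cells held 13 Hopx UMIs, and the gene passed the count filter through the superficial sums.

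Gata3 was flagged in cells that the main comparison did not use. The 1357 EoE cells outside the limits held 19 Gata3 UMIs in 19 cells, 95.3 CPM, against 6.88 CPM in control cells. None of the 19 cells had a UMI of a T cell or immune marker. Those cells were shallow, with 199450 UMIs in all, and the source of the signal was not tested.

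Of 49 groups of 4 to 6 mice examined, 3 had a mouse set apart from the others, where chance gives about 1 in 20. Ovol1 was low over all cells of control 2 (19.4 CPM, next 51.5 CPM). Gata3 was high in suprabasal cells of control 2 (49.6 CPM), which is 1 UMI. Trp63 was low in basal cells of control 3 (304 CPM, next 662 CPM), and the ESCC comparison in basal cells passed without that mouse (above).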

How the results depend on the processing

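Of 990 member results under an alternative, 893 kept their direction and side of the threshold, 61 no longer passed, 27 newly passed and 9 changed sign. These cover members that were tested in the main fit and whose values are given above. A member first tested under an alternative is not among them, though the ranges of members passing below include it. None of the 9 had passed before: in ESCC versus control, Trp63 with DESeq2 (0.023); in EoE versus control, Sox2 with all deposited cells (0.070) and Ovol1 without EoE 12 (0.10, range with each mouse left out -0.77 to 0.10); in EoE versus ESCC, Sox2 without TMM (0.27), with all cells (0.86, adjusted p = 0.00841), without EoE 12 (0.097) and without ESCC 8M (0.11, range with each mouse left out -0.38 to 0.11), and Klf5 with all cells (0.43); and in superficial cells, Trp63 in ESCC with cells thinned for the stage call (0.17). The cause was not tested. With each mouse left out, the members passing ran from 4 to 7 in ESCC versus control (4 without ESCC 17M), 1 to 4 in suprabasal versus basal cells, 3 to 5 in superficial versus suprabasal cells, 1 to 6 in ESCC suprabasal cells and 1 to 2 in the comparison of the ESCC difference between stages. The members passing between superficial and basal cells ran from 4 to 6. Of all genes, 1413 of 5984 passed in ESCC versus control without ESCC 17M. In suprabasal versus basal cells 263 of 3273 passed without control 2. In superficial versus basal cells the genes passing ran from 1287 of 2445 without control 1 to 1751 of 3273 without control 2. In superficial versus suprabasal cells 523 of 3273 passed without control 2 and 580 of 3299 without control 3. In ESCC suprabasal cells 256 of 992 passed without ESCC 17F, and the ESCC difference between stages passed for 108 of 4548 without ESCC 8M. In suprabasal versus basal cells 1 member passed without the replicate block by mouse (246 of 2921 genes) and 2 with DESeq2 (234 of 2921). In ESCC suprabasal cells 2 members passed with DESeq2 (313 of 991 genes). With a strip of 0.5 the ESCC difference between stages passed for 2 members (69 of 4115 genes). No block could be made between conditions, which share no mouse. Counting shared barcodes once, added after seeing the data, left 7 members passing in ESCC versus control and 6 in EoE versus control. Of all 5768 genes tested in those fits, 1970 and 2069 passed. Over all genes, those higher among the called were 51.6% in ESCC versus control, 62.1% with DESeq2 and 34.3% without TMM. With mice thinned to the lowest control total 611 genes passed in ESCC versus control in place of 2016, and 1547 in EoE versus ESCC in place of 2440, where 679 of 881 passed with only those 2 groups fitted and 40.7% of calls were higher without TMM in place of 28.1%. Suprabasal versus basal cells gave 758 in place of 300 with stages from Leiden clusters, superficial versus basal 2561 in place of 1610 with no filter, and ESCC suprabasal cells 680 in place of 382 with a strip of 0.5. Without EoE 10, 1149 genes passed in EoE versus control and 1586 in EoE versus ESCC. In EoE versus control 3030 genes passed with all deposited cells in place of 2018, 42.2% of them higher in place of 27.5%, and depth limits every EoE value.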
